A study of Mus musculus with 6 samples.

Results

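In livers of fat-fed mice, Hspb1 was the 1 gene of the heat shock set whose values did not overlap between Balb/cBy and Balb/c mice. This held in 1 of the 2 probe sets with Hspb1 as their only symbol. Of all genes, 4.32% lay wholly higher and 3.51% wholly lower in Balb/cBy, shares near which 1 of 9 measured genes lies. The inducible gene Hspa1b spanned 13.0-fold among 3 Balb/cBy mice. The set comprised 10 genes of the heat shock response of the cytosol and mitochondria, chosen by name: Hspb1, Bag3, Hspa1a, Hspa1b, Hspa8, Dnajb1, Hsph1, Hsp90aa1, Hspd1 and the transcription factor gene Hsf1. Each was read by the probe set that has it as its only gene symbol, or, among several of those, by the brightest on average. This gave values for 9 of the 10 genes, out of 22180 genes in all. No probe set carried the name Hsf1 in the annotation used, and Hsf1 was not analysed here. The series holds liver RNA on 6 one-colour Affymetrix arrays, with 3 male mice each of Balb/c and Balb/cBy, substrains of 1 albino inbred line. All mice were 20 weeks old and had been fed for 12 weeks, from an age of 8 weeks, with a diet in which fat supplied 58% of the energy. The Balb/cBy substrain is known to lack part of Acads, a mitochondrial acyl-CoA dehydrogenase gene, which the labels do not mention. The labels call the arrays of a strain biological replicates and name no group on another diet, so every value below comes from fat-fed mice.

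Heat shock proteins are chaperones that hold unfolded proteins in solution and refold them. When proteins unfold, heat shock factor 1 (HSF1) is released from its chaperones, forms a trimer and binds heat shock elements, which are inverted repeats of the letters GAA in promoters. Hspa1a and Hspa1b, the inducible Hsp70 genes, together with Dnajb1, Hsph1 and Bag3, are classical targets, whereas Hspa8 is made constantly in most cells. In mouse liver several of these genes are known to follow a daily rhythm together with body temperature and feeding.

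Promoter windows were found for 7 of the 10 genes, and not for Hspa8, Hsp90aa1 and Hsf1. The windows are those of RefSeq on GRCm38.p6, and the 250 bases before the transcript start were read. Those of Hspa1a, Hspa1b and Hspb1 are printed, because Hspa1b, whose window is compared with that of its copy Hspa1a, varied most within Balb/cBy, and the probe set used for Hspb1 separated the strains. For Hspd1 a short stretch is given, since it holds the longest run of repeats. Capitals mark matches to GAANNTTC or TTCNNGAA, each of which reads the same on both strands.
Hspa1b (chr17:34959239-34959488, minus strand): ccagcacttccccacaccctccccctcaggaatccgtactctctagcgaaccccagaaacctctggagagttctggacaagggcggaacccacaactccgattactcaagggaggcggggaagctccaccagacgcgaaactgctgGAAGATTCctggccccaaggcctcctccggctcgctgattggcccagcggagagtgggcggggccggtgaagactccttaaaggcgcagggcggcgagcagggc
Hspa1a (chr17:34972157-34972406, minus strand): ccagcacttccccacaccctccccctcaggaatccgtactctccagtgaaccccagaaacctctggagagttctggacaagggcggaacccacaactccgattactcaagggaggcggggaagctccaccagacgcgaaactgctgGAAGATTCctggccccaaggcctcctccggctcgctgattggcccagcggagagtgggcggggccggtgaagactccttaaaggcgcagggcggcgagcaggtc
Hspb1 (chr5:135887669-135887918, plus strand): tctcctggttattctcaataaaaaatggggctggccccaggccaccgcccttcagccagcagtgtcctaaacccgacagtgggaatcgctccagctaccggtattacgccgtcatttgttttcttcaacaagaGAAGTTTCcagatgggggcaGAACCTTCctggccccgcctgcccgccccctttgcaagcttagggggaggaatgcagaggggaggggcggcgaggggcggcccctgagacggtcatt
Hspd1 (chr1:55088055-55088080, minus strand): ggccTTCCGGAAGGTTCTAGAAcgga
The Hspa1a and Hspa1b windows were the same at 247 of 250 bases, with 1 match at the same place in both, from 104 to 97 bases before the start. Hspb1 held 2 matches, from 117 to 110 and from 97 to 90 bases before its start. A match was found in 5 of the 7 genes (Hspb1, Hspa1a, Hspa1b, Hsph1 and Hspd1), against 14.5% of 27025 genes with windows of the same length. A pair of such matches that overlap by their GAA or TTC, as alternating repeats, was found in Hspd1 alone of the 7, against 0.514% of all genes. These letters were not in the windows of Bag3 and Dnajb1, which says nothing about binding elsewhere.

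With all 6 arrays, 0 of the 9 genes passed an adjusted p of 0.05 in limma, where 0% of all genes did. An unadjusted p under 0.05 with a higher level in Balb/cBy was reached by 2 of the 9 (Hspb1 and Bag3), against 2.59% of all genes, and 0 reached it with a lower level, against 1.16%. The strains did not overlap for 1 of them, Hspb1, with higher values in Balb/cBy, against 4.32% of all genes, and 0 were wholly lower, against 3.51%. These 2 counts without overlap lie near the shares over all genes. A difference above 0, Balb/cBy minus Balb/c on the log2 scale, was found for 7 of the 9, against 49.1% of all genes. It was above 0.5 for 5 of the 9 genes, against 0.812% of all genes. The set was chosen with earlier results of these data known, so these counts are descriptions and lend no separate support. Hspa1a and Hspa1b, counted as 2 genes, can also share probe signal. The median difference of the 9 was 0.56, and that of all genes -0.0028. This median changed with single mice. It was 0.12 without Balb/cBy replicate 2, 0.38 without replicate 3 and 0.80 without replicate 1 of that strain. Leaving out Balb/c replicate 3 gave 0.35, and leaving out replicate 1 or 2 of Balb/c gave 0.68. In whole liver, fewer cells of a type and less RNA per cell cannot be told apart.

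**Figure D1:**
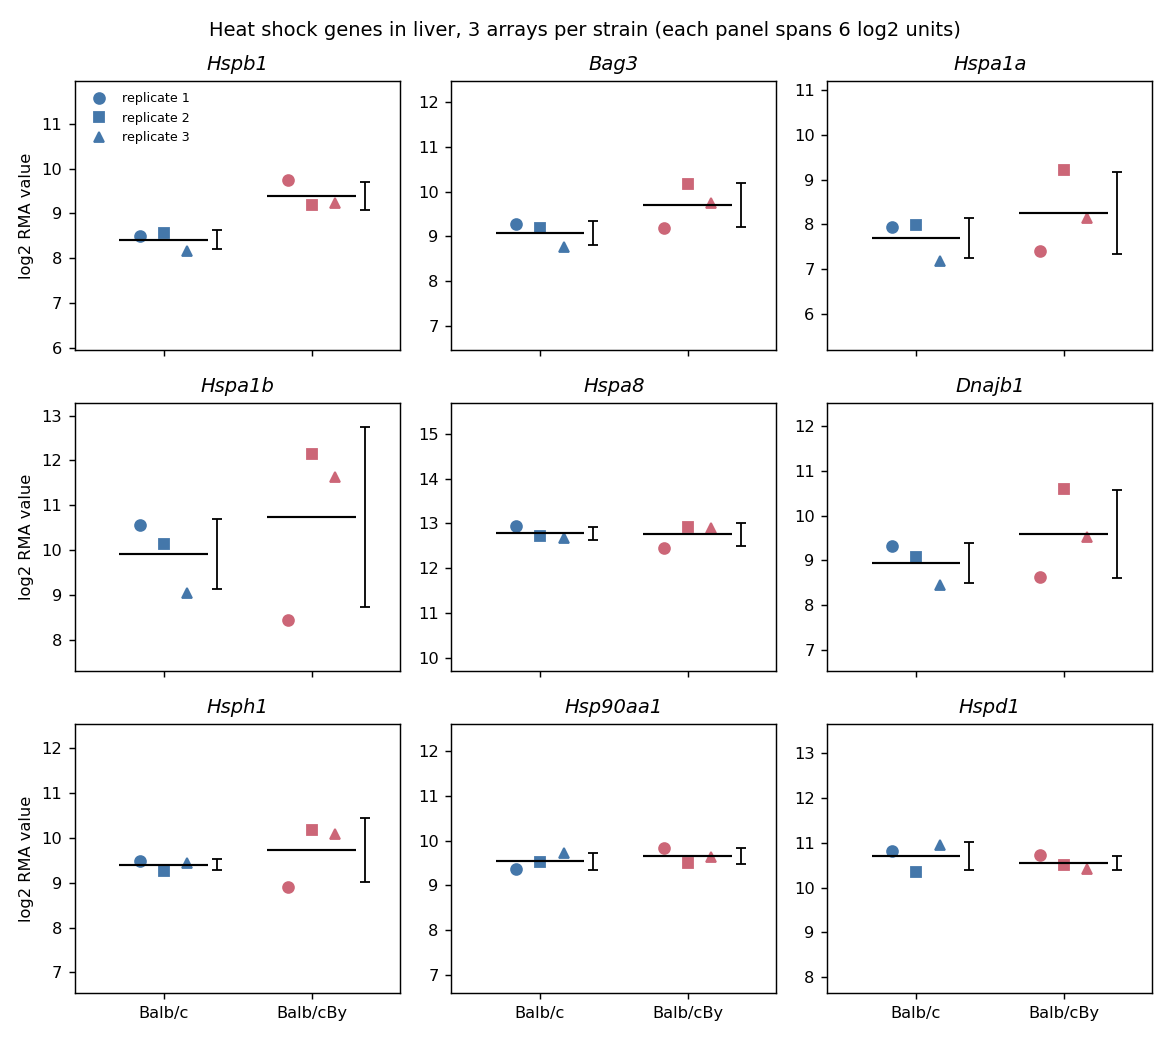
Log2 RMA values of the 9 measured genes on each array, with replicates of Balb/c in blue and of Balb/cBy in red. Horizontal lines are means and bars show ± 1 SD (n = 3 per strain). The Balb/cBy points of Hspb1, from 9.19 to 9.74, lie above all Balb/c points, while those of Hspa1b run from 8.44 to 12.14 and enclose the Balb/c points.

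Hspb1 encodes a small heat shock protein that binds unfolded proteins without using ATP and steadies actin filaments. Its values were 8.49, 8.57 and 8.17 in Balb/c replicates 1, 2 and 3, and 9.74, 9.19 and 9.22 in Balb/cBy replicates 1, 2 and 3. All 3 Balb/cBy mice lay above all 3 Balb/c mice. The means were 8.41 ± 0.21 and 9.38 ± 0.31 (SD, n = 3 each). The log2 difference was 0.97 (SE 0.17, 95% interval 0.58 to 1.37), or 1.96-fold. The adjusted p in limma was 0.429, and the exact permutation p (two-sided) was 0.1, the smallest that 3 arrays against 3 allow. Of all genes, 27 had a larger difference in this direction. Leaving out any 1 array gave differences from 0.80 to 1.07. Another probe set with Hspb1 as its only symbol did not separate the strains, with 7.76, 8.43 and 7.97 in Balb/c and 8.19, 8.16 and 8.07 in Balb/cBy, a difference of 0.09 (SE 0.17). The mean of both probe sets gave 0.53 (SE 0.14). Which locus each of the 2 reads could not be settled here, so this mean may mix loci.

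Bag3 encodes a cochaperone that joins Hsp70 to small heat shock proteins and directs cargo to autophagy. Its values were 9.27, 9.18 and 8.76 in Balb/c, and 9.18, 10.17 and 9.74 in Balb/cBy, in the order of the replicate numbers. Balb/cBy replicates 2 and 3 stood above all Balb/c mice, and replicate 1 lay among them. The log2 difference was 0.62 (SE 0.24, adjusted p = 0.999 in limma), with a 95% interval of 0.06 to 1.18. It was 0.39 without Balb/cBy replicate 2.

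Of the inducible Hsp70 genes, Hspa1b varied most among Balb/cBy mice. It stood at 10.57, 10.13 and 9.05 in Balb/c, and at 8.44, 12.14 and 11.64 in Balb/cBy. The Balb/cBy group thus held both the lowest and the highest value of the 6, 13.0-fold apart, whereas the Balb/c mice differed by up to 2.86-fold. The SD was 0.78 among Balb/c and 2.01 among Balb/cBy mice. The latter was the largest of all 22180 genes in that strain. The strain difference of 0.83 (SE 0.87, adjusted p = 0.999 in limma) was smaller than its error, and its 95% interval ran from -1.18 to 2.83. Without Balb/cBy replicate 1 it was 1.98 (adjusted p = 0.417 in limma).

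Hspa1a, the neighbouring copy, had values of 7.94, 7.98 and 7.17 in Balb/c and of 7.40, 9.23 and 8.13 in Balb/cBy. Balb/cBy replicate 2 was again the highest array, and Balb/c replicate 3 the lowest. The log2 difference was 0.56 (SE 0.42) with SDs of 0.46 and 0.92. Because Hspa1a and Hspa1b are nearly identical in their transcripts, signal from 1 copy can reach the probes of the other, and the split between them is uncertain. A probe set annotated to both genes did not show the pattern, at 8.18, 7.86 and 8.42 in Balb/c and 8.60, 8.77 and 8.28 in Balb/cBy.

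The partners of Hsp70 followed the same order within Balb/cBy. Dnajb1, a J-domain protein that delivers clients to Hsp70 and starts its ATPase cycle, stood at 9.31, 9.07 and 8.45 in Balb/c and at 8.63, 10.60 and 9.53 in Balb/cBy. Hsph1, the Hsp110 protein that exchanges the nucleotide of Hsp70, stood at 9.49, 9.27 and 9.45 in Balb/c and at 8.91, 10.18 and 10.10 in Balb/cBy. For both, Balb/cBy replicates 2 and 3 lay above every Balb/c mouse. Balb/cBy replicate 1 lay below every Balb/c mouse for Hsph1, and below Balb/c replicates 1 and 2 for Dnajb1. The log2 differences were 0.64 (SE 0.44) for Dnajb1 and 0.32 (SE 0.30) for Hsph1. The Balb/c mice lay close together for Hsph1, with an SD of 0.12 against 0.71 in Balb/cBy. For Dnajb1 the SDs were 0.45 and 0.99.

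Hspa8, the constitutive Hsp70, had values of 12.93, 12.72 and 12.67 in Balb/c and of 12.46, 12.91 and 12.89 in Balb/cBy, a log2 difference of -0.02 (SE 0.14). Balb/cBy replicate 1 was the lowest of the 6 arrays. The other 3 probe sets with Hspa8 as their only symbol had differences of 0.20, 0.28 and 0.29 (SE 0.23, 0.19 and 0.19), so the sign depended on the probe set, although the last pair of these had nearly the same value on every array. Within Balb/cBy replicate 1 was the lowest and replicate 2 the highest in each of these other probe sets too. Which loci they read was not settled here.

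Hsp90aa1 and Hspd1 did not follow this order. Hsp90aa1, the inducible cytosolic Hsp90, stood at 9.36, 9.51 and 9.73 in Balb/c and at 9.84, 9.49 and 9.64 in Balb/cBy, a log2 difference of 0.12 (SE 0.13, 95% interval -0.18 to 0.42). Hspd1, the chaperonin Hsp60 of the mitochondrial matrix, stood at 10.82, 10.36 and 10.95 in Balb/c and at 10.73, 10.50 and 10.43 in Balb/cBy, a log2 difference of -0.16 (SE 0.16, 95% interval -0.53 to 0.22). In both the strains overlapped, and Balb/cBy replicate 1 was the highest of its group, as it was for Hspb1. Of the 5 genes with heat shock element letters in their windows, Hspa1a, Hspa1b and Hsph1 lay within the common order and Hspb1 and Hspd1 outside it, while Bag3 and Dnajb1, with none there, lay within it.

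**Figure D2:**
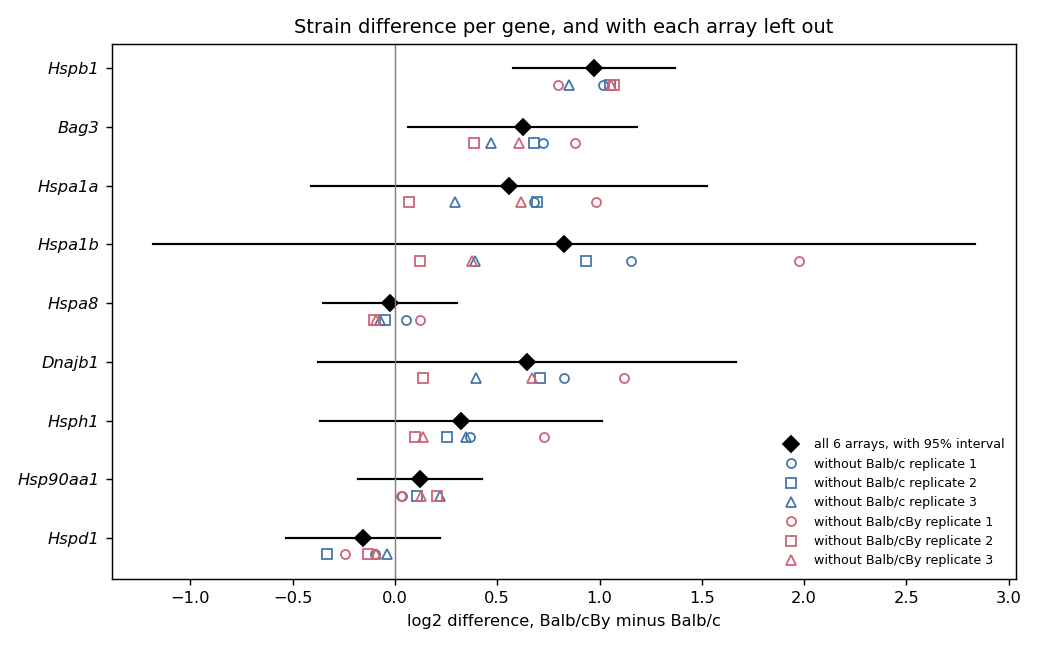
Log2 difference, Balb/cBy minus Balb/c, for each gene with all 6 arrays (diamonds, with 95% intervals from the limma fit) and with 1 array left out (open symbols). Hspb1 stays between 0.80 and 1.07, while Hspa1b moves between 0.12 when Balb/cBy replicate 2 is left out and 1.98 when replicate 1 of that strain is.

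Balb/cBy replicate 1 was the lowest and replicate 2 the highest of the strain for 6 of the 9 genes (Bag3, Hspa1a, Hspa1b, Hspa8, Dnajb1 and Hsph1), against 22.1% of all genes. Replicate 2 was the highest of all 6 arrays for 5 of them, against 21.7% of all genes, the exception being Hspa8. Both orders were picked after the values of these genes were seen, so the 2 counts are descriptions and lend no separate support. The SD was larger in Balb/cBy than in Balb/c for 7 of the 9 genes, against 53% of all genes. It was above 0.5 in Balb/cBy for 4 genes (Hspa1a, Hspa1b, Dnajb1 and Hsph1), against 1.58% of all genes. The set was chosen with earlier results of these data known, so these 2 counts of SDs are descriptions too. The median SD of the 9 genes was 0.28 in Balb/c and 0.50 in Balb/cBy, while the medians over all genes were 0.12 and 0.13. With 3 mice per strain no test of a difference in spread was made. Part of the wider spread depended on 1 mouse. Without Balb/cBy replicate 1 the SD was larger in Balb/cBy for 3 of the 9 genes (Bag3, Hspa1a and Dnajb1), and that of Hspa1b was 0.36. These SDs cover 2 Balb/cBy arrays against 3 of Balb/c, and no share over all genes is given for this count.

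**Figure D3:**
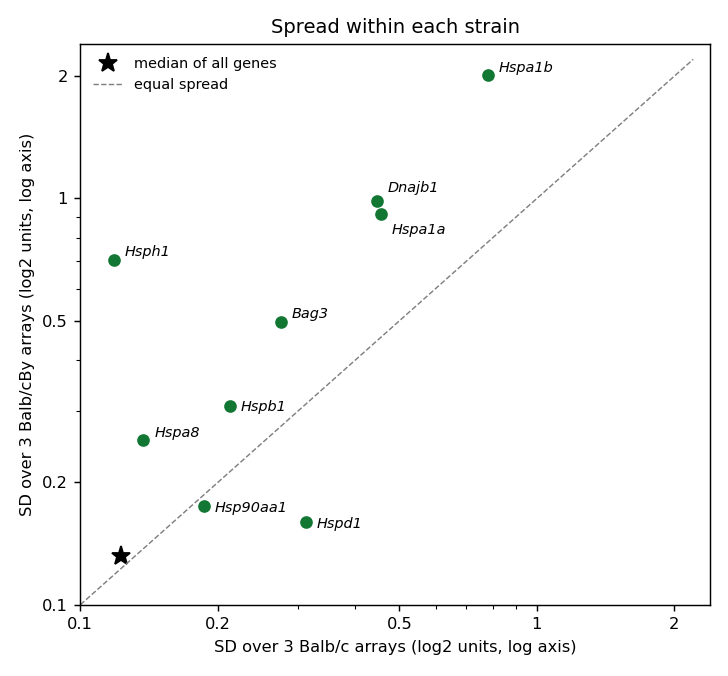
SD over the 3 Balb/cBy arrays against SD over the 3 Balb/c arrays for each gene, both in log2 units on log axes; the dashed line marks equal spread and the star the medians of all genes (0.12 and 0.13). Hspa1b lies highest, at 2.01, and Hspd1 and Hsp90aa1 lie below the line.

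Without Balb/cBy replicate 1, 6 of the 9 genes lay wholly above Balb/c (all but Hspa8, Hsp90aa1 and Hspd1), against 12.8% of all genes, and 6 had an unadjusted p under 0.05 and a higher level in Balb/cBy, against 5.18%. Of the 9 genes, 0 passed an adjusted p of 0.05 in that fit, and the smallest was 0.219 in limma, for Hsph1. Because this mouse was the low one for most of these genes, its removal widens the difference, and the counts lend no separate support. Without any other single array the count lying wholly above was 1, against 6.73% to 9.53% of all genes.

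Other chaperone genes were taken from 8 lists of pathway genes, of which 88 of 96 genes were measured. Of these 88, 0 passed an adjusted p of 0.05, 55 had a difference above 0 and 33 below, and the median was 0.05. An unadjusted p under 0.05 with a higher level in Balb/cBy was reached by 2 of the 88, Hspa13 and Cct3, against 2.59% of all genes, and 0 reached it with a lower level, against 1.16%. The strains did not overlap for 5 that were higher and 1 that was lower in Balb/cBy, against 4.32% and 3.51% of all genes, shares near which these counts lie. Hspa13, Ahsa1, Bag6, Hspe1 and Hsf2bp were higher in Balb/cBy and Grpel2 was lower, genes named here after their values were seen. Differences of the 88 ran from -0.44 to 0.41, and so stayed below those of Hspb1, Bag3 and the inducible Hsp70 genes. Hsp90ab1, the constitutive Hsp90, was among the genes with no probe set of their own name.

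Among the Hsp90 cochaperones, 10 of 13 measured had a difference above 0 (median 0.16, 0 past an adjusted p of 0.05). Stip1, which links Hsp70 to Hsp90, differed by 0.32 (SE 0.14), and Sugt1, a cochaperone of immune receptors, by 0.35 (SE 0.16). Of the chaperonin TRiC and its partner prefoldin, 12 of 13 had a difference above 0 (median 0.11), led by the subunits Cct3 at 0.29 (SE 0.12) and Pfdn5 at 0.25 (SE 0.17). Other targets of HSF1 had 9 of 11 above 0 (median 0.09), with heme oxygenase Hmox1 at 0.41 (SE 0.19) and the signalling regulator Rgs2 at 0.26 (SE 0.11). Other Hsp70 and small heat shock genes had 7 of 13 above 0 (median 0.02), with Hspb8, the partner of Bag3, at 0.24 (SE 0.18) and Hspa1l, an Hsp70 gene beside the inducible pair, at -0.19 (SE 0.12).

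J-domain proteins of the cytosol were even, with 5 of 10 above 0 (median -0.01), Dnajb2 at 0.28 (SE 0.13) and Dnajb4 at -0.19 (SE 0.11). Hsp70 cochaperones had 4 of 8 above 0 (median -0.02), with Hspa13 at 0.39 (SE 0.14) and St13 at -0.16 (SE 0.11). Mitochondrial chaperones and proteases had 5 of 13 above 0 (median -0.05). Clpp, the protease of the matrix, differed by 0.26 (SE 0.14), and Yme1l1, a protease of the inner membrane, by -0.32 (SE 0.17). The cochaperonin Hspe1, the partner of Hspd1, differed by 0.11 (SE 0.08), and Hspa9, the mitochondrial Hsp70, by -0.07 (SE 0.16). The heat shock factors and their partners had 3 of 7 above 0 (median -0.04), with Hsf2 at -0.14 (SE 0.19), Hsbp1, which binds HSF1 trimers, at 0.16 (SE 0.13) and Hsf2bp at 0.12 (SE 0.10). No list gave a gene past an adjusted p of 0.05 in limma.

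On average, chaperones of the endoplasmic reticulum had another order of mice. Of 13 measured genes, 12 had a difference above 0 (median 0.33) and 0 passed an adjusted p of 0.05. In limma 7 of them reached an unadjusted p under 0.05 with a higher level in Balb/cBy, against 2.59% of all genes. This list too was chosen with earlier results known, so the count is a description. Hspa5 (BiP) stood at 9.77, 9.90 and 10.10 in Balb/c and at 10.58, 10.57 and 10.36 in Balb/cBy. Creld2 differed by 1.22 (SE 0.15), Sdf2l1 by 0.85 (SE 0.23) and Manf by 0.65 (SE 0.09). Hyou1, the nucleotide exchange factor of BiP, differed by 0.78 (SE 0.11) and Hsp90b1, the Hsp90 of that compartment, by 0.27 (SE 0.29). The mean of the list was highest in Balb/cBy replicate 1, at 11.19 against 10.87 and 10.90 in replicates 2 and 3. Bag3, Hspa1a, Hspa1b, Hspa8, Dnajb1 and Hsph1 were instead at their lowest in the strain in replicate 1. Within the list, Manf and Sil1 were lowest there too, and Dnajb9 was highest in replicate 3.

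**Figure D4:**
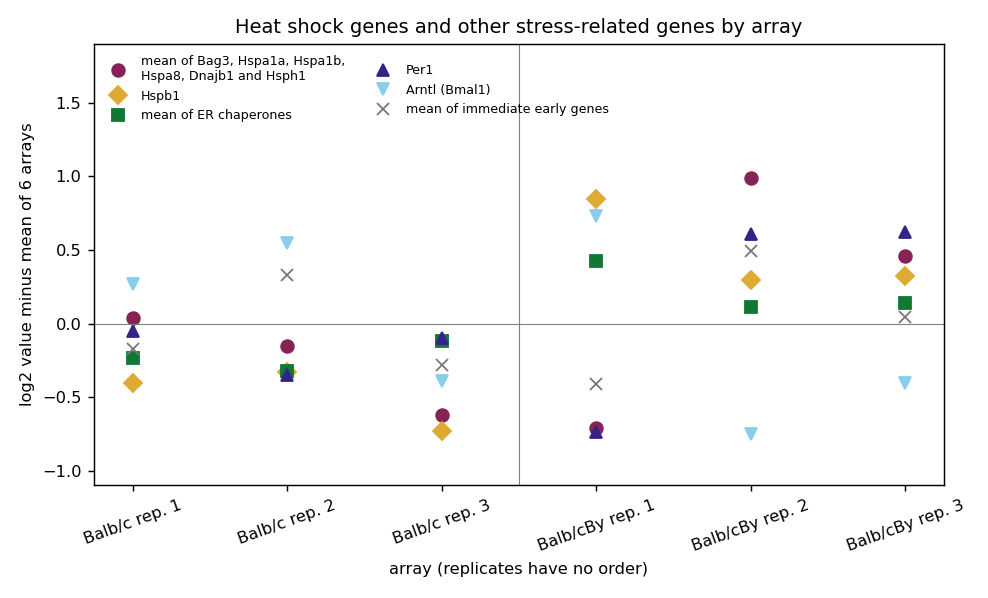
Log2 values minus the mean of the 6 arrays, for the mean of 6 heat shock genes (chosen after their values were seen), Hspb1, the mean of 13 endoplasmic reticulum chaperones, the clock genes Per1 and Arntl, and the mean of 13 immediate early genes. In Balb/cBy replicate 1 the 6 heat shock genes and Per1 are at -0.71 and -0.73 while Hspb1 and Arntl are at 0.84 and 0.73.

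The list of clock and glucocorticoid response genes holds genes that moved in opposite directions. Within Balb/cBy its mean was lowest in replicate 1, as were Bag3, Hspa1a, Hspa1b, Hspa8, Dnajb1 and Hsph1. Arntl, Clock, Npas2, Cry1 and Nfil3 of the list were highest there, as were Hspb1, Hsp90aa1 and Hspd1. The mean of the 15 measured was 9.15, 9.06 and 9.37 in Balb/c and 8.94, 9.27 and 9.36 in Balb/cBy. Per1, a clock repressor, stood at 9.10, 10.44 and 10.46 in Balb/cBy and at 9.79, 9.49 and 9.74 in Balb/c. Arntl (Bmal1), a clock activator, stood at 9.04, 7.56 and 7.91 in Balb/cBy and at 8.58, 8.86 and 7.92 in Balb/c. Both were chosen after their values were seen. Dbp, a clock output gene, stood at 8.62, 10.18 and 9.94 in Balb/cBy and at 9.24, 8.88 and 10.45 in Balb/c. In Balb/c replicate 3, where Dbp was highest, both Hspa1b and Arntl were the lowest of that strain. Of the 15 genes 7 had a difference above 0 (median -0.03) and 0 passed an adjusted p of 0.05, with Hlf at -0.20 (SE 0.15) and Ciart at 0.42 (SE 0.30). The labels used here give no time of dissection, and the part of the clock in the spread was not tested.

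Cirbp, an RNA-binding protein induced by mild cold, stood at 7.86, 7.86 and 7.85 in Balb/c and at 7.71, 7.54 and 7.59 in Balb/cBy, without overlap, a log2 difference of -0.25 (SE 0.09, adjusted p = 0.999 in limma). The splicing factor Srsf5 differed by -0.15 (SE 0.17). Immediate early genes, which respond within minutes to handling or injury, had list means of 8.92, 9.43 and 8.82 in Balb/c and of 8.69, 9.59 and 9.14 in Balb/cBy. Replicate 1 was again the lowest and replicate 2 the highest of Balb/cBy. Of the 13 genes 6 had a difference above 0 (median -0.04), with Myc at 0.40 (SE 0.18) and Klf6 at 0.46 (SE 0.22), and 0 passed an adjusted p of 0.05. Their part in the heat shock values was not tested.

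The genes most like the heat shock set were sought by Pearson correlation over the 6 arrays with the mean of the 9 genes' centred values, among 1652 genes with an SD of at least 0.3. Gene models without a proper symbol were passed over in naming genes. Of the rest the highest were Rbm15b (r = 0.990), the sterol cyclase Lss (0.987), Ifi204 (0.986), Timp4 (0.986), Ubald1 (0.984), Txndc11 (0.984), the cytoplasmic actin Actg1 (0.983) and Snord70 (0.983). Actg1 stood at 10.02, 9.56 and 9.50 in Balb/c and at 9.47, 11.23 and 10.51 in Balb/cBy. A correlation above 0.9 was found for 84 of the 1652 genes. These 6 arrays share strain, normalization and any trait of the mice, and a likeness among so many genes is a description. Of the members themselves, Bag3 was the most like the mean of the other 8 (r = 0.970) and Hspb1 had r = 0.18, whereas Hsp90aa1 and Hspd1 had r = -0.52 and -0.60.

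Array medians lay between 7.66 and 7.74 and correlations between arrays between 0.972 and 0.988. Hepatocyte markers other than Ass1 were high in every array, with Alb from 14.16 to 14.22, and of the 12 measured 0 passed an adjusted p of 0.05. Ass1 ran from 7.80 to 8.33. Of 10 marker lists of other cell types, 2 had summed levels that did not overlap between the strains. The log2 of the summed lymphocyte markers (11 of 12 measured) ran from 11.5 to 11.6 in Balb/c and from 11.8 to 12.3 in Balb/cBy. Ighm differed by 1.59 and Jchain by 1.12, whereas 8 of the 11 had a difference below 0 (median -0.17). Of these, 4 lay wholly below Balb/c, against 3.51% of all genes. The only erythroid marker measured, of 7, ran from 8.43 to 8.72 and from 8.76 to 8.81. Array values have no 0, so no marker could be called absent. The part of these cells in the heat shock values was not tested.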

How the data were processed

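The authors deposited log2 values per probe set from RMA, which corrects background, quantile-normalizes and sums up probes by median polish, as the submitters' processing notes name it. Their range showed the log2 scale. RMA version and build: not given in the sources used here. Symbols came from GEO's platform annotation: of 41345 probe sets 23521 had 1 symbol, 1814 several and 16010 none. Balb/cBy minus Balb/c was fitted over 22180 genes in limma 3.58.1 (lmFit, eBayes; R 4.3.3) without covariates or filter, with Benjamini-Hochberg adjustment over all genes. The scripts were tested on simulated data. Alternatives covered centring, normalization, low values, probe sets, the variance model, array weights, the replicate block and each array left out. The number of arrays limits the precision. Columns of per-sample values not used: 0. The genes and lists were chosen with earlier results of these data known. All members were named, and of each pathway or context list, not of the marker lists, the 2 genes with the smallest p, those with p under 0.01, and Hspa5, Hsp90b1, Hsp90ab1, Hspe1, Hspa9, Hsf2, Cirbp, Rbm3 and Dbp where measured, except where the text says otherwise. Rbm3 and Hsp90ab1 were not measured.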

Additional observations from a re-analysis of the deposited data

How the results depend on the processing

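The 9 settings that kept all arrays and the 6 that left out 1 each gave 0 heat shock genes past an adjusted p of 0.05. Over all genes the count of 0 became 12 with array weights, and leaving out single arrays gave 0 to 3 (2 when Balb/c replicate 3 was left out, 3 when Balb/cBy replicate 1 was). The median difference of 0.56 ranged from 0.12 to 0.80 over the arrays left out. The count of genes with a larger SD in Balb/cBy, 7, ranged from 3 without Balb/cBy replicate 1 to 8 over the arrays left out and was 9 with a repeated quantile normalization, and the SD of Hspa1b in Balb/cBy from 0.36 to 2.62, in alternatives added after the data were seen. Hspa8 alone changed sign: its difference was 0.19 as the mean of its probe sets, 0.0030 with array weights, -0.10 to 0.12 over the arrays left out (0.06 for Balb/c replicate 1 and 0.12 for Balb/cBy replicate 1), 0.20, 0.28 and 0.29 in its other probe sets, added after the data were seen, and 0.047 in a probe set shared with Snord14e; the cause was not tested. Hspb1 kept its sign, with an adjusted p of at least 0.135 in limma over the settings with all arrays. The replicate number as a block gave 0 calls, for the members and for all genes, and an adjusted p of 0.569 in limma for Hspb1. Deviations of arrays with the same replicate number correlated at -0.32, -0.20 and -0.23. Deviations from a strain's own mean are not independent of one another, so these values cannot show whether the numbers pair mice. The labels do not say that they do.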

Other observations

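After Hspa1b, the genes with the largest SD within Balb/cBy were the immunoglobulin segment Igkv4-59 (1.92) and the small nucleolar RNA Snora31 (1.79). Igkv4-59 stood at 5.40, 9.12 and 8.10 in Balb/cBy and at 5.53, 5.08 and 4.67 in Balb/c. Clpx, the unfoldase that feeds the protease Clpp, was highest within Balb/cBy in replicate 1, where Bag3, Hspa1a, Hspa1b, Hspa8, Dnajb1 and Hsph1 were lowest. Its values were 10.05, 8.63 and 8.61 in Balb/cBy, with 9.40, 9.82 and 9.42 in Balb/c. These genes were chosen after their values were seen.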
